A study of Homo sapiens with 9 samples.

Results

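The genes described are 10 transcription factors of the erythroid and megakaryocytic lineages: GATA1, GATA2, TAL1, KLF1, NFE2, GFI1B, LMO2, RUNX1, FLI1 and MYB. They were chosen by name for their known roles, with earlier results of these data known. All 10 were measured, out of 18239 genes in all. Each gene is represented by the probe set that carries only its symbol and has the highest mean over the 9 arrays. The cells were K562, a human leukaemia cell line that keeps erythroid and megakaryocytic features. By its title, the study asked how 2 mutant forms of calreticulin, the endoplasmic reticulum chaperone encoded by CALR, affect stress responses in blood cells. There were 3 groups of 3 Affymetrix arrays: cells given the Del52 deletion form of CALR, cells given the Ins5 insertion form, and cells given wild-type CALR. Cells of all 3 groups were exposed to retroviral supernatant in 4 cycles 12 h apart, cultured for 36 h more and selected on beads for the surface marker NGFR. Per the labels, more than 90% of the cells carried NGFR 48 h after selection, and RNA came from 100000 cells per sample. The wild-type group is thus a transduced control that also received CALR, and an untransduced group is not analysed here. The labels give the samples of each group replicate numbers 1 to 3 but do not say whether these were separate transductions, so p-values measure the spread between these samples only.

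GATA1 and GATA2 are zinc finger proteins that bind the same short DNA motif. GATA2 maintains early progenitors, and GATA1 takes over as erythroid and megakaryocytic cells mature. GATA1 works in a complex with the helix-loop-helix protein TAL1 and with LMO2, a LIM-domain protein that bridges the complex without binding DNA itself. KLF1 activates globin and other red cell genes through CACCC boxes, NFE2 pairs with small MAF proteins, and GFI1B is a repressor needed in both lineages. RUNX1 and the ETS protein FLI1 act in megakaryocytes, FLI1 and KLF1 oppose each other at the choice between the lineages, and MYB keeps progenitors dividing.

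Because several of these factors are known to regulate each other's genes, the promoters of the 10 genes were searched for their motifs. RefSeq windows of 250 bases upstream of the start (GRCh38.p14) were matched for 7 of the 10 genes, 10 windows in all. NFE2, LMO2 and FLI1 had no entry. The GATA motif, the bases GATA preceded by A or T and followed by A or G on either strand, occurred in 3 windows, 1 each of KLF1, GFI1B and TAL1, and these 3 are shown 5′ to 3′ along the gene's strand with the motif in capitals.

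KLF1, chr19:12887202-12887451, minus strand: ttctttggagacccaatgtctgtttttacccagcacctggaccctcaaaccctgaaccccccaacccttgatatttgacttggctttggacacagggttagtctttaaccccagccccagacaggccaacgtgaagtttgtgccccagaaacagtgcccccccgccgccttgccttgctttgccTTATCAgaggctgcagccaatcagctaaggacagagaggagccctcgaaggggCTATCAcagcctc

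GFI1B, chr9:132978444-132978693, plus strand: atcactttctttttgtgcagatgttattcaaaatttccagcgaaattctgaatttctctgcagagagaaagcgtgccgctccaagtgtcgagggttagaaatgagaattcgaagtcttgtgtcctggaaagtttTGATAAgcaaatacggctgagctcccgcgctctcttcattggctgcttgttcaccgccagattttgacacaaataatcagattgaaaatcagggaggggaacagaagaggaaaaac

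TAL1, chr1:47232336-47232585, minus strand: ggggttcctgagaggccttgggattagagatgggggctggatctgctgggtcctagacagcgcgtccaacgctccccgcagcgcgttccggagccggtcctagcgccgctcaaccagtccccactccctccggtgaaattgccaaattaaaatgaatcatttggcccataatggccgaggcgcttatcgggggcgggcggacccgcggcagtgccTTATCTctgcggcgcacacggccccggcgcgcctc

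The KLF1 window held 2 matches, which begin 66 and 13 bases before the start. The match in GFI1B began 116 bases before the start and that in TAL1 35 bases before it. Over all 35116 RefSeq windows of this length, 22.3% held the GATA motif, so 3 of 10 windows is close to the share found everywhere. The CACCC-type motif bound by KLF1 (CCNCNCCC on either strand) occurred in 7 of the 10 windows, against 53.4% of all windows. The RUNX motif TGTGGT occurred in 1 of 10, a second TAL1 window, against 11.0% of all windows. A match describes the letters of the window and does not show binding.

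All values are the authors' log2 expression values. The array medians ran from 3.73 to 3.76, and the number of arrays limits the precision. Globins showed the erythroid character of the line in every array: HBG1, fetal beta-type globin, read 11.78 to 12.06 over the 9 arrays. Of 12 markers of granulocytes and monocytes, all measured, none but LYZ, a lysozyme gene with a mean of 9.65, read above 4.46 in any array. Among lymphoid markers CD3D and PAX5 had means of 6.26 and 6.31, and among epithelial markers EPCAM, KRT8 and KRT18 had means of 8.54, 7.71 and 9.14. The mean level of the granulocyte and monocyte list was 3.42 to 3.56 in Del52, 3.50 to 3.53 in Ins5 and 3.40 to 3.56 in wild type. The lymphoid list (10 of 11 measured) gave 4.05 to 4.15, 4.07 to 4.17 and 3.97 to 4.17 in the same groups. The fibroblast and epithelial list (10 of 10) gave 4.42 to 4.50, 4.38 to 4.46 and 4.40 to 4.51. The part of other cells in the results was not tested. In RNA from a cell population, fewer cells of a type and less RNA per cell cannot be told apart. CALR averaged 7.42 in Del52 arrays, 7.40 in Ins5 arrays and 7.57 in wild-type arrays, and NGFR averaged 3.42, 3.43 and 3.36. Neither passed the limma test in any comparison.

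A property of the deposited values bears on every result. For all 49386 probe sets, the mean over the 3 arrays that share a replicate number was the same for numbers 1, 2 and 3, with a largest gap of 6.7e-05. The means of the 3 groups were not equal in this way, with a median gap of 0.10. Values centred on the replicate number have this property, and no such step is given in the sources used here. A high value in 1 array of a number therefore goes with lower values in the other arrays of that number. Such a step leaves the differences between arrays of 1 number unchanged. Whether 1 array was high or the other 2 were low before it cannot be told from the table. The 9 arrays also carry less independent information than 9 separate samples: 4 residual degrees of freedom remain with replicate number in the model, against 6 without it. Standard errors of the limma fit used for the tests, which has no such term, are accordingly too small. With the term as a block, the standard errors of the 10 genes were 1.15 to 1.40 times as large, while the fold changes were identical.

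None of the 10 factors passed the limma test in any comparison. With p-values adjusted over all genes by the Benjamini-Hochberg method and a threshold of 0.05, 0 of 10 were called for Del52 against wild type, where percent called over all genes was 0%. The same held for Ins5 (0%), for Del52 against Ins5 (0%), for both mutants together against wild type (0%) and the F test over the 3 groups (0%). Among the 10 factors, the smallest adjusted p from limma was 0.831 for Del52, 0.614 for Ins5, 1.00 for Del52 against Ins5, 0.58 for both mutants and 0.69 for the F test. At an unadjusted p under 0.05, 0 of 10 passed for Del52 against wild type (7.05% of all genes) and 1 of 10 for Ins5 against wild type (7.41%). The corresponding counts were 0 of 10 for Del52 against Ins5 (5.77%), 1 of 10 for both mutants (7.97%) and 0 of 10 for the F test (7.23%). FLI1 was the gene in both cases, and its values lie at background level as described with its group. The log2 fold changes ran from -0.07 (MYB) to 0.23 (GFI1B) for Del52 and from -0.00 (NFE2) to 0.18 (GATA2) for Ins5. Positive values were found for 6 of 10 genes in Del52 against wild type (54.6% of all genes) and for 9 of 10 in Ins5 against wild type (59.6%). The medians over the 10 genes were 0.09 for Del52 and 0.06 for Ins5, against 0.01 and 0.02 over all genes. Both comparisons share the wild-type arrays.

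**Figure D1:**
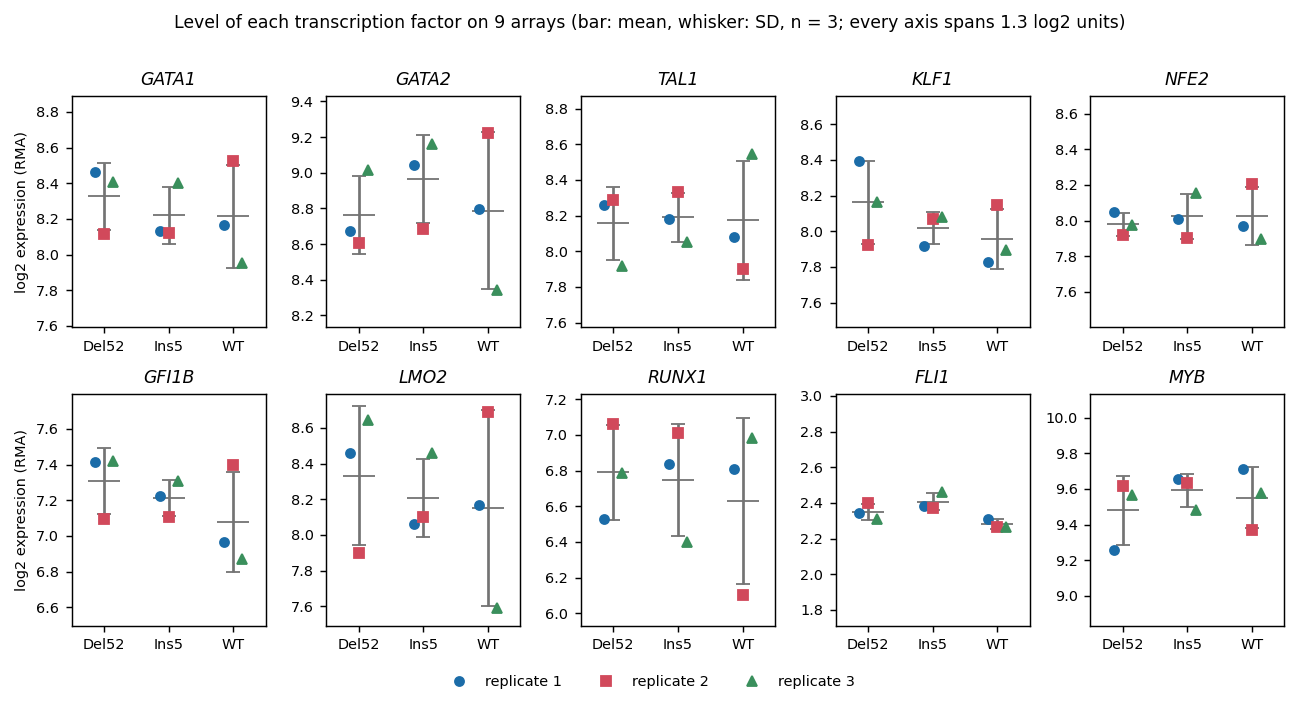
Deposited log2 expression of the 10 factors in each of the 9 arrays, by group (Del52, Ins5, wild type) and replicate number, with group means and SDs (n = 3). The groups overlap for every gene except FLI1, whose Ins5 arrays (2.37 to 2.46) lie above its wild-type arrays (2.26 to 2.31) at a level near background.

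The GATA factors come first, with arrays listed in the order of replicates 1, 2 and 3. GATA1 read 8.47, 8.11 and 8.40 in Del52, 8.13, 8.12 and 8.40 in Ins5, and 8.16, 8.53 and 7.96 in wild type. The highest and the lowest GATA1 values were both wild type, replicates 2 and 3, and all 3 groups overlapped. Its log2 fold change was 0.11 ± 0.16 (SE) for Del52 and 0.00 ± 0.16 for Ins5 (limma adjusted p = 0.973 and 1.00). GATA2 read 8.67, 8.61 and 9.01 in Del52, 9.05, 8.69 and 9.16 in Ins5, and 8.80, 9.22 and 8.34 in wild type. Again wild-type replicates 2 and 3 held the extremes. GATA2 was the 1 gene of the 10 with a lower value in Del52 than in Ins5 within each replicate number, by -0.37, -0.08 and -0.14. Over all genes 27.2% had the same sign in all 3 numbers for that comparison, and the fold change of -0.20 ± 0.23 (SE) had a limma adjusted p of 1.00. It lay between -0.34 and -0.10 with 1 array left out and was -0.03 as the mean of all GATA2 probe sets, 1 of which differed by 0.25. Against wild type, the GATA2 values were -0.02 ± 0.23 for Del52 and 0.18 ± 0.23 for Ins5.

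TAL1 and LMO2, the partners of GATA1 in its DNA-bound complex, ran in opposite directions across arrays. TAL1 read 8.26, 8.29 and 7.92 in Del52, 8.18, 8.33 and 8.06 in Ins5, and 8.08, 7.90 and 8.55 in wild type. LMO2 read 8.46, 7.90 and 8.64 in Del52, 8.06, 8.10 and 8.46 in Ins5, and 8.17, 8.69 and 7.59 in wild type. In wild-type replicate 2 LMO2 was at its highest and TAL1 at its lowest, and in wild-type replicate 3 the reverse held. LMO2 had the widest range of the 10 genes, 1.10 log2 units or 2.14-fold, and this range lay within the wild-type group. TAL1 had log2 fold changes of -0.02 ± 0.17 (SE) for Del52 and 0.02 ± 0.17 for Ins5. Those of LMO2 were 0.18 ± 0.29 and 0.06 ± 0.29, with limma adjusted p of 0.982 and 1.00. With replicate number as a block, the 95% interval of the Del52 difference for LMO2 ran from -0.65 to 1.01.

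KLF1, GFI1B and NFE2 come next. KLF1 read 8.39, 7.93 and 8.17 in Del52, 7.92, 8.07 and 8.08 in Ins5, and 7.83, 8.15 and 7.89 in wild type. Del52 replicate 1 held the highest KLF1 value. The Del52 difference of 0.21 ± 0.13 (SE, limma adjusted p = 0.831) was 0.09 without that array, and the Ins5 difference was 0.06 ± 0.13. GFI1B read 7.41, 7.10 and 7.42 in Del52, 7.22, 7.11 and 7.31 in Ins5, and 6.97, 7.40 and 6.87 in wild type. Of the wild-type arrays 2 lay below every mutant array, while replicate 2 lay above 4 of the 6. GFI1B had log2 fold changes of 0.23 ± 0.15 for Del52 and 0.13 ± 0.15 for Ins5 (limma adjusted p = 0.84 and 0.945). These were 0.39 and 0.29 without wild-type replicate 2, and 0.13 and 0.03 without wild-type replicate 3. Its block intervals were -0.20 to 0.66 and -0.29 to 0.56. NFE2 read 8.05, 7.92 and 7.98 in Del52, 8.01, 7.90 and 8.16 in Ins5, and 7.97, 8.21 and 7.90 in wild type. These 9 values spanned 0.31 log2 units, and the differences from wild type were -0.04 ± 0.09 for Del52 and -0.00 ± 0.09 for Ins5.

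RUNX1, FLI1 and MYB complete the set. RUNX1 read 6.53, 7.06 and 6.79 in Del52, 6.84, 7.01 and 6.40 in Ins5, and 6.81, 6.10 and 6.98 in wild type. Its lowest value was wild-type replicate 2, where GATA1, GATA2, LMO2 and NFE2 were at their highest. RUNX1 differed from wild type by 0.16 ± 0.26 (SE) in Del52 and by 0.12 ± 0.26 in Ins5. MYB read 9.26, 9.62 and 9.56 in Del52, 9.66, 9.63 and 9.48 in Ins5, and 9.71, 9.37 and 9.58 in wild type. The lowest MYB value lay in Del52 replicate 1, the array with the highest KLF1 value. MYB differed from wild type by -0.07 ± 0.12 in Del52, which became 0.04 without that array, and by 0.04 ± 0.12 in Ins5. FLI1 read 2.34, 2.40 and 2.31 in Del52, 2.38, 2.37 and 2.46 in Ins5, and 2.31, 2.26 and 2.27 in wild type. Every Ins5 value of FLI1 was above every wild-type value, as for 8.16% of all genes (11.5% did not overlap in either direction), and Del52 overlapped both. The Ins5 difference was 0.13 ± 0.04 (SE, limma adjusted p = 0.614, unadjusted p = 0.0215 from the fit across all genes), and its block interval of -0.02 to 0.28 included 0. The 4 FLI1 probe sets had means of 1.77 to 2.34, near the median (2.01) of 23 antigenomic control probe sets. These controls spanned 1.56 to 6.35. The median gene, at 4.31, also lies in that wide span, so a place in it does not by itself put a gene at background. The other 3 FLI1 probe sets differed between Ins5 and wild type by -0.05 to 0.03.

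**Figure D2:**
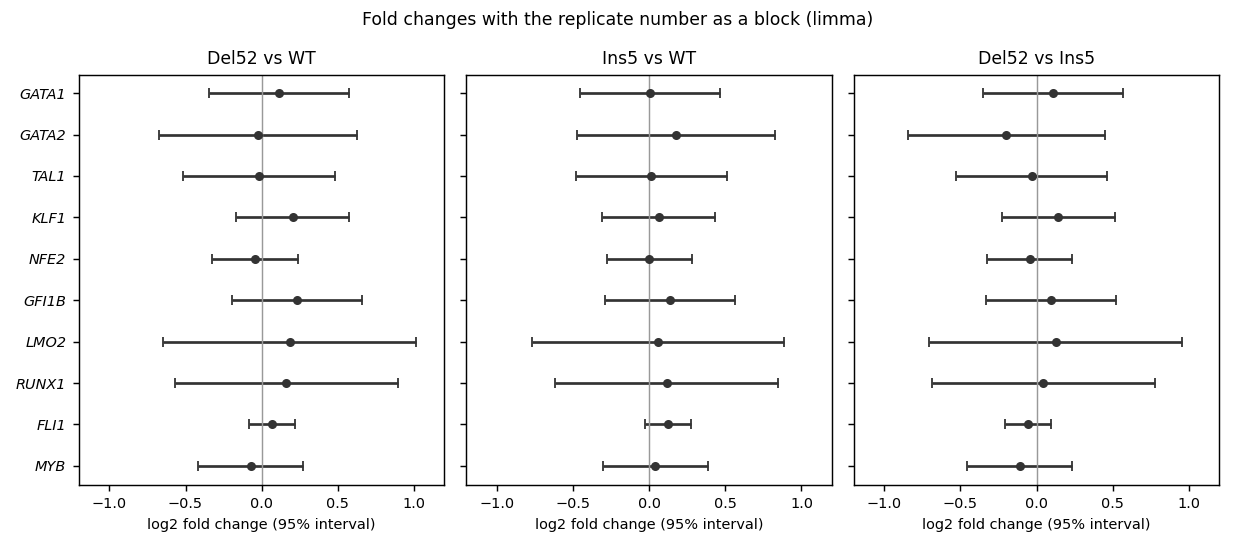
Log2 fold changes of the 10 factors, as points, for Del52 and for Ins5 against wild type and for Del52 against Ins5, with 95% intervals from the limma fit that has replicate number as a block. Every interval includes 0, and that of LMO2 is the widest, at -0.65 to 1.01 for Del52 against wild type.

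Del52 and Ins5 were then compared within each replicate number, where mutant and wild-type arrays are centred together. In number 2, both mutants lay below wild type for GATA1, GATA2, KLF1, NFE2, GFI1B and LMO2 and above it for TAL1, RUNX1 and MYB. In number 3 the signs were turned for these 9 genes. LMO2 differed between Del52 and wild type by 0.29, -0.79 and 1.05 in numbers 1, 2 and 3, and between Ins5 and wild type by -0.10, -0.59 and 0.87. RUNX1 ran the other way, with -0.28, 0.96 and -0.20 for Del52 and 0.03, 0.91 and -0.59 for Ins5. Both differences of a number use the same wild-type array. Only FLI1, 1 of 10 genes, kept 1 sign in all 3 numbers in each of the 2 comparisons with wild type, against 16.8% of all genes for Del52 and 17.9% for Ins5.

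**Figure D3:**
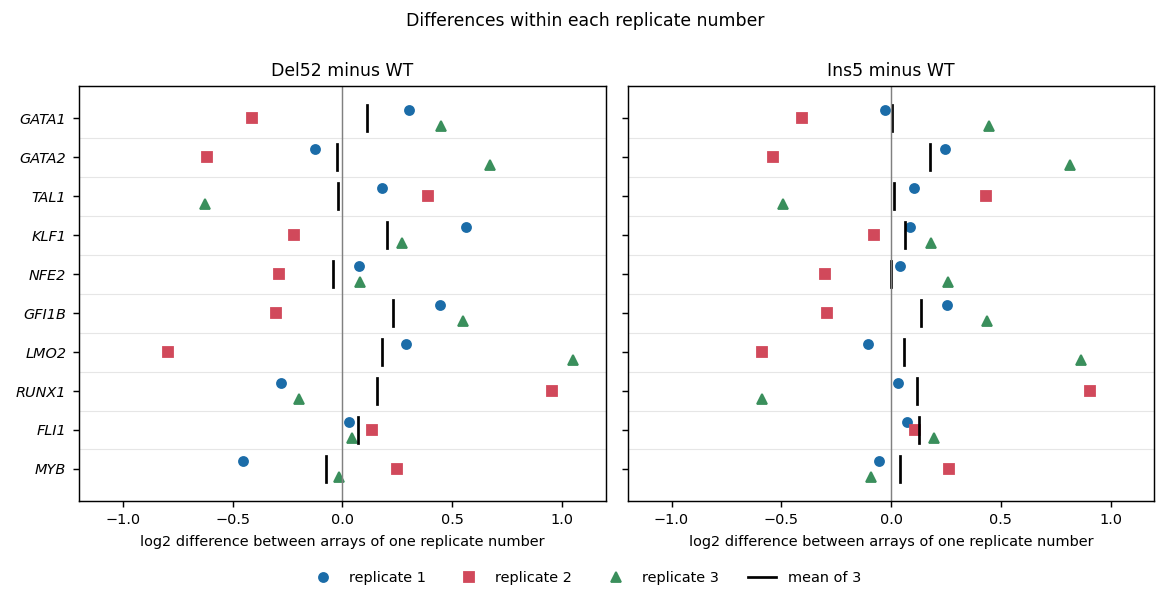
Log2 differences within replicate numbers 1, 2 and 3 for the 10 factors: Del52 minus wild type and Ins5 minus wild type, each point from 2 arrays, with the mean of the 3 numbers as a bar. For LMO2 the Del52 differences are 0.29, -0.79 and 1.05, and the signs of 9 genes turn between numbers 2 and 3.

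Most of the spread of these genes followed the main axis of the whole data set. The first principal component over all genes held 70.5% of the variance and the second 10.0%. Wild-type replicates 2 and 3 lay at its ends, with scores of 0.57 and -0.57. Over the 9 arrays the component correlated with LMO2 at 0.957, GATA1 at 0.937, GATA2 at 0.892, NFE2 at 0.881 and GFI1B at 0.847. TAL1 and RUNX1 correlated with it at -0.914 and -0.879. KLF1 (0.548) and MYB (-0.537) followed it less closely, and FLI1 not at all (-0.00). The component was computed from genes that include these 10. The actin 3-prime minus 5-prime difference, a measure of RNA integrity and labelling, was 1.18, 1.33 and 1.24 in Del52, 1.22, 1.38 and 1.24 in Ins5, and 1.39, 1.08 and 1.31 in wild type. It was lowest in wild-type replicate 2. The control probe sets also have equal means over the replicate numbers, so each value is relative to the other arrays of its number. The part of this measure in the results was not tested. Groups accounted for 0.487% of the variance of TAL1 and for at most 26.8% of that of any other factor (KLF1), apart from FLI1 with 70.0%. The median over all genes was 21.3%.

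The 10 genes form 45 pairs. An absolute Pearson r of 0.8 or more over the 9 arrays was reached by 11 pairs, which is 24.4% of them. FLI1 lies below the median level of all genes, and without it the count was 11 of 36 pairs, or 30.6%. Among all pairs of the 9119 genes above the median level, 20.0% reached it, and the difference between these shares was not tested. GATA1 and LMO2 correlated at r = 0.958 (Spearman rho 0.967), GATA1 and GFI1B at 0.912, and GATA2 and TAL1 at -0.891. TAL1 and LMO2 correlated at -0.877, KLF1 and MYB at -0.869, and NFE2 and RUNX1 at -0.970 (rho -0.883). In an exact permutation test over all 362880 pairings of arrays, two-sided and adjusted over the 45 pairs, 16 pairs passed, 8 of them positive and 8 negative. The same test on Spearman's rho passed 15. That test treats the arrays as exchangeable, which the equal means of the replicate numbers do not allow. When arrays were exchanged only within a replicate number, 216 pairings, 0 of 45 pairs passed. The smallest adjusted p of that exact test was 0.0947, and 17 pairs had an unadjusted p under 0.05. With so few pairings, fewer than 5 pairs could not pass, and only 2 sat at the smallest possible p. The test thus has little power, and each Pearson r is the same as before. The within-number p of the exact test was 0.00463 for GATA1 and LMO2, the smallest it can give. For NFE2 and RUNX1 it was 0.01852, for GATA1 and GFI1B 0.02315 and for KLF1 and MYB 0.0417. It was above 0.05 for GATA2 and TAL1 (0.0602) and for TAL1 and LMO2 (0.0741). Without wild-type replicate 2 the number of pairs passing the test over all pairings was 3, and without wild-type replicate 3 it was 5. Without the 2 arrays farthest from the median of the first gene, r was 0.965 for GATA1 and LMO2, -0.908 for NFE2 and RUNX1, -0.688 for TAL1 and LMO2 and -0.609 for KLF1 and MYB. All 16 pairs kept their sign. With the first principal component taken out of the values, r was -0.02 for TAL1 and LMO2 and -0.41 for GATA2 and TAL1. It was 0.60 for GATA1 and LMO2, 0.64 for GATA1 and GFI1B, -0.81 for KLF1 and MYB and -0.87 for NFE2 and RUNX1.

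**Figure D4:**
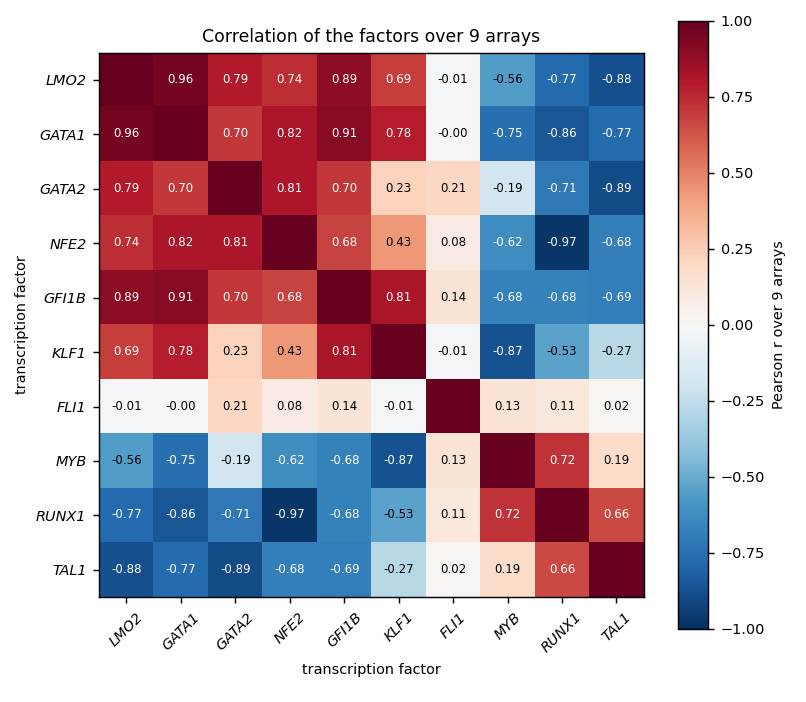
Pearson r between each pair of the 10 factors over the 9 arrays, on a colour scale with the value printed in each cell. GATA1, GATA2, NFE2, GFI1B and LMO2 vary together and against TAL1 and RUNX1, while FLI1 stands apart.

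For each factor the 2 genes with the most similar pattern over the 9 arrays were taken from the other genes above the median level. They were CCDC86 and UNC45A for GATA1 (r = 0.998 for each), BAMBI and COTL1 for GATA2 (0.995 each), and TMOD1 (0.995) and ELSPBP1 (0.994) for TAL1. PRR14 and METTL26 were closest to LMO2 at 0.997 each, and SMAD2 (0.995) and HNRNPLL (0.994) to RUNX1. TUBGCP2 (0.991) and XPO6 (0.988) followed GFI1B, ZNF689 (0.989) and SLC25A44 (0.986) followed NFE2, and NFIC (0.984) and MRPL20 (0.976) followed KLF1. The closest to MYB were TBRG1 and PPP3CA (0.986 each) and to FLI1 ZNF580 (0.967) and PRR32 (0.944). These correlations share the same 9 arrays and the same main axis.

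The other probe sets of the 10 genes served as a check of the chosen ones, 28 probe sets in all. Both further GATA1 probe sets followed the chosen one at r = 0.988 and 0.923 over the 9 arrays. The 5 further GATA2 probe sets correlated with it at 0.678 to 0.997, and the second MYB probe set at 0.721. The second LMO2 probe set, with a mean of 4.59, correlated at 0.313. For RUNX1, which is transcribed in several isoforms, 4 of 6 further probe sets followed the chosen one at 0.685 to 0.962, and the others correlated at -0.366 and -0.539. A RUNX1 probe set with a mean of 3.07 had a Del52 difference of -0.31, opposite to the 0.16 of the chosen one (limma adjusted p = 0.634 over all probe sets). TAL1, KLF1, NFE2 and GFI1B each had 1 probe set.

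The proteins that work with these factors were described by lists. Of 21 binding partners and cofactors, 20 were measured, and 0 passed in any comparison. Del52 against wild type gave positive values for 11 of 20 and a median of 0.015, and Ins5 for 14 of 20 and a median of 0.04. MAFF, a small MAF partner of NFE2, was lower in every Del52 array (4.32, 4.43 and 4.30) than in every wild-type array (4.44, 4.49 and 4.67), with a difference of -0.18 ± 0.08 (SE, limma adjusted p = 0.713). Groups failed to overlap for 10.6% of all genes in that comparison. The deacetylase gene HDAC1 differed by 0.11 between Del52 and wild type. ZFPM1, the GATA1 cofactor also called FOG1, and CBFB, the partner of RUNX1, differed by 0.15 and 0.12 between Ins5 and wild type. Between Del52 and Ins5, SP1 and the acetyltransferase gene EP300 had differences of -0.21 and -0.14. MAFF, ZFPM1 and EP300 lay within the wide span of the antigenomic controls but had group means above the median gene (4.31).

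Of 25 other blood transcription factors all 25 were measured and 0 passed. Values were positive for 11 in Del52 and for 14 in Ins5 against wild type. BACH1, a repressor that competes with NFE2 at its sites, read 7.23, 7.47 and 7.20 in Del52, 7.12, 7.40 and 7.24 in Ins5, and 7.88, 7.36 and 7.79 in wild type. Replicates 1 and 3 of wild type lay above all mutant arrays, while replicate 2 lay among them. It differed from wild type by -0.37 ± 0.15 (SE) in Del52 and by -0.42 ± 0.15 in Ins5 (limma adjusted p = 0.667 and 0.614). GFI1, the paralogue of GFI1B, was 0.23 higher in Ins5 than in wild type (limma adjusted p = 0.588). Its groups did not overlap, as for 8.16% of all genes in that direction. BCL11A, a repressor of fetal globin, was 0.22 higher in Del52 (limma adjusted p = 0.603). Between Del52 and Ins5, MEIS1 differed by -0.54 with no overlap, as for 10.1% of all genes, and RUNX2 by -0.93 with overlap (limma adjusted p = 0.841 and 0.896). GFI1, BCL11A, MEIS1 and RUNX2 had group means of at most 3.85, within the span of the antigenomic controls.

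Genes that these factors are known to control were taken as 3 lists. Of 41 erythroid target genes 32 were measured, 0 passed, and 29 of 32 were positive for Del52 against wild type, with a median of 0.095, against 54.6% and 0.01 over all genes. Within replicate numbers 1, 2 and 3, the medians of this list were 0.22, 0.14 and -0.13, with 27, 20 and 13 positive genes. In numbers 2 and 3 these signs were opposite to those of GATA1, GATA2, KLF1, NFE2, GFI1B and LMO2. They were the same as those of TAL1, RUNX1 and MYB. In number 1, for Del52, GATA1, TAL1, KLF1, NFE2, GFI1B and LMO2 shared the positive sign of the list. GATA2, RUNX1 and MYB were negative there. For Ins5 against wild type 21 of 32 were positive, with medians of 0.02, 0.17 and -0.16 by number. ANK1, which encodes the red cell ankyrin, read 7.52, 7.21 and 7.25 in Del52, above the 7.04, 7.14 and 7.07 of wild type. Groups failed to overlap, in either direction, for 10.6% of all genes in that comparison. The ANK1 difference was 0.24 ± 0.10 (SE, limma adjusted p = 0.667). In Ins5 the ANK1 difference was 0.18. EPOR, the erythropoietin receptor, differed by 0.37 in Del52 but read as low as 3.59. TSPO2 was 0.20 higher in Ins5 than in wild type, and TRIM58, a ubiquitin ligase of late erythroblasts, was 0.35 higher in Del52 than in Ins5 (limma adjusted p = 0.588 and 0.841). EPOR, TSPO2 and TRIM58 lay within the span of the antigenomic controls, but TRIM58 had group means above the median gene (4.31).

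Of 23 megakaryocyte and platelet genes 21 were measured and 0 passed. Positive values were found for 15 in Del52 and for 15 in Ins5 against wild type. ALOX12, the platelet lipoxygenase, read 3.12, 2.95 and 3.06 in Del52 and 2.78, 2.89 and 2.76 in wild type, a difference of 0.23 ± 0.06 (SE, limma adjusted p = 0.603). VWF, the von Willebrand factor, differed by 0.20 in Del52. PPBP, a platelet chemokine, and PECAM1, an adhesion molecule, differed by 0.43 and 0.18 in Ins5, and MMRN1 by -0.15 between Del52 and Ins5. PPBP averaged 2.09 in Del52 arrays, 2.48 in Ins5 arrays and 2.05 in wild-type arrays. All 5 of these genes lay within the span of the antigenomic controls, which also holds the median gene (4.31). Of 11 progenitor genes 10 were measured, 4 were positive in Del52 and 5 in Ins5 against wild type, and 0 passed. FLT3 and CD34, a cytokine receptor and a surface marker of progenitors, differed by 0.10 each in Del52. SOX4 differed by 0.17 and BCL2, which inhibits apoptosis, by 0.16 in Ins5, and BCL2 by -0.26 between Del52 and Ins5. These 4 genes also lay within that span, with FLT3 at 2.56 in Del52 and 2.45 in wild type and CD34 at 2.86 and 2.76. SOX4 and BCL2 had group means above the median gene.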

How the data were processed

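The deposited log2 expression values of 9 K562 arrays, 3 per construct, were analysed. The authors made them with Partek and RMA, per the submitters' processing notes; RMA subtracts background, equalises the arrays and combines the probes of a set. The sources used here name no versions and no batch step, and the log base was read from the range of the values. Of 49386 probe sets, 93 controls were left out of the tests, and 45253 had exactly 1 symbol in the platform annotation (1327 had several, 2713 none). The probe set with the highest mean stood for its gene, and no filter was set on low values.

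Group differences were fitted with limma 3.58.1 (R 4.3.3), in 1 fit of 9 arrays with a mean per group, with Benjamini-Hochberg adjustment over 18239 genes. Correlations were tested with exact permutations (Python 3.11.15, numpy 2.4.6). Both were also run on simulated data with independent arrays, which lack the equal means of the replicate numbers.

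The pairing by replicate number was checked by correlating deviations from the group means. Same-numbered arrays gave -0.923 (Del52 and wild type, number 2) to 0.643 (Del52 and Ins5, number 2). Arrays of different numbers gave -0.767 to 0.876. The equal means of the numbers tie the deviations of same-numbered arrays to each other, so this check cannot show whether a number pairs samples. The labels do not say what a number shares. Since the deposited means of the 3 numbers are equal within 0.0001 in 100.0% of probe sets, the fit with the number as a block is given beside the fit without it.

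The 10 genes and the gene lists were chosen with earlier results of these data known. All 10 genes are named, with the 2 genes most like each. The 2 genes with the smallest p per comparison are named from each list of partners, other factors, erythroid targets, megakaryocyte genes and progenitor genes, but not from the marker lists of other cells. CALR and NGFR are named too. Alternatives covered normalization, centring, filters, probe sets, variance models, the block, a principal component and each array left out.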

Additional observations from a re-analysis of the deposited data

How the results depend on the processing

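No factor passed in any of the 5 tests under quantile normalization, median centring, the filter on dim genes (which leaves out FLI1), the mean of all probe sets, probe sets tested singly, an intensity trend, unmoderated variances, the first principal component as covariate, replicate number as a block or any array left out. The same held for fits of the compared groups alone, run for the 3 comparisons of 2 groups. Over all genes, where the reported test called 0, the principal component gave 4 calls for Del52, 7 for Ins5, 0 for Del52 against Ins5, 68 for both mutants and 2 in the F test, and unmoderated variances gave 2, 9, 1, 8 and 6. Array weights were the exception for the factors. With them 3 factors passed for Del52 against wild type (KLF1 0.401, GFI1B 0.381, MYB -0.289), 1 for Ins5 (GFI1B 0.244), 3 for both mutants and 2 in the F test. That fit called 3190, 4017, 6232 and 5345 genes. It gave wild-type replicate 1 a weight of 66.973, against 0.237 and 0.285 for replicates 2 and 3, so the wild-type mean rested on 1 array. The replicate block left 0 factors called in each test, with adjusted p of at least 0.999968, and it left 0 of the 45 correlations past the threshold where 16 passed without it. Correlations centred on the group means also left 0. Both tests have 216 pairings and a smallest p of 0.00463, so fewer than 5 pairs could not pass. At that p lay 2 pairs with the block and 4 with group means. The block leaves every r as it was. Centred on the group means, 14 of the 16 pairs had a larger absolute r and 12 kept an unadjusted p under 0.05 in the exact test. Leaving out wild-type replicates 2 and 3 together, an alternative chosen after seeing the data, left 0. Leaving out 1 array left 3 to 17. Small fold changes turned their sign in 17 instances with all arrays. For Del52 against wild type these were GATA2 (0.066) and RUNX1 (-0.039) with the mean of probe sets, TAL1 with quantile normalization (0.007), array weights (0.089) and the principal component (0.005), and NFE2 (0.027) and RUNX1 (-0.093) with array weights. For Ins5 against wild type they were GATA1 (-0.03) and TAL1 (-0.019) with median centring, GATA1 with the principal component (-0.003), NFE2 with quantile normalization (0.008), and NFE2 (0.041), LMO2 (-0.029), RUNX1 (-0.006) and MYB (-0.086) with array weights. For Del52 against Ins5 RUNX1 turned with the mean of probe sets (-0.055) and array weights (-0.088). Leaving out 1 array turned the sign in 32 instances. For Del52 against wild type the ranges were GATA1 -0.017 to 0.268, GATA2 -0.245 to 0.195, LMO2 -0.097 to 0.453, MYB -0.164 to 0.039, NFE2 -0.109 to 0.046, RUNX1 -0.104 to 0.337 and TAL1 -0.156 to 0.167. For Ins5 against wild type the ranges were GATA1 -0.126 to 0.16, GATA2 -0.046 to 0.393, LMO2 -0.222 to 0.328, MYB -0.052 to 0.118, NFE2 -0.067 to 0.091, RUNX1 -0.148 to 0.293 and TAL1 -0.122 to 0.201. For Del52 against Ins5 the ranges were LMO2 -0.03 to 0.343, NFE2 -0.105 to 0.022, RUNX1 -0.131 to 0.175 and TAL1 -0.101 to 0.085. Without a turn of sign, GFI1B ranged over 0.127 to 0.391 for Del52 and 0.03 to 0.294 for Ins5 against wild type and 0.041 to 0.204 for Del52 against Ins5, and KLF1 over 0.09 to 0.323, 0 to 0.159 and 0.026 to 0.259. In Del52 against Ins5, GATA1 ranged over 0.04 to 0.216, GATA2 over -0.337 to -0.101 and MYB over -0.181 to 0. The cause of these turns was not tested, and none of these fold changes was called. FLI1, with a mean of 2.34, lies near the median of the antigenomic controls (2.01), which limits what its values show.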
